A study of Anas platyrhynchos and Gallus gallus and Anas rubripes with 21 samples.

Results

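Gene expression in the trigeminal ganglion (TG) was compared between chicken (*Gallus gallus*) and wood duck (*Aix sponsa*), birds of different families that both find food mainly by sight, to see which genes differ between them and which neuronal genes have similar levels. The comparison took every gene that stands in both the chicken and the duck annotation and has a mean of at least 1 RPKM (reads scaled to gene length and to the mapped reads of a library) over the pair. This left 9846 of the 20451 genes in the table. The study sequenced mRNA from whole TG of unhatched embryos that had pierced the inner shell membrane, with 3 birds each of chicken, wood duck and 5 other ducks (Pekin duck, black duck, ruddy duck, lesser scaup and harlequin duck). The chickens were at embryonic day 19 to 21 and the wood ducks at embryonic day 28 to 31, and the labels name no treatment and no sex. Chicken and Pekin duck eggs came from a commercial farm and the other duck eggs from a wildlife research centre or a waterfowl conservancy, so species, source and days of incubation cannot be told apart.

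The TG holds the cell bodies of the neurons that carry touch, temperature and pain signals from the beak, tongue and mouth, together with Schwann cells, satellite glia, vessels and connective tissue. Large myelinated neurons with neurofilament-rich axons and the channel PIEZO2 detect touch and vibration. Smaller neurons with TRP channels and neuropeptides detect heat, cold and irritants. Birds that probe mud or strain water with the bill lean heavily on the touch-sensing neurons, and birds that peck at seen items lean on them less.

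The table holds 1 value per species, the authors' mean of the 3 birds, so no level below carries an error, no difference could be set against the spread between birds, and no test was run. Ratios are given as the log2 ratio of RPKM + 1, chicken over wood duck, which is positive where chicken is higher and understates the change of genes with low RPKM. A gene is counted as different at 2-fold or more on this scale and as similar where the level in either species is at most 25% above the other. In whole ganglia, fewer cells of a type and less RNA per cell cannot be told apart. The tissue label was matched by neuronal markers in both species. *STMN2*, a tubulin-binding protein of neurons, had 1466 RPKM in chicken and 1675 RPKM in wood duck. *UCHL1*, a ubiquitin hydrolase of neurons, had 1045 and 1419.6 RPKM, and *SNAP25*, a protein of synaptic vesicle fusion, had 226 and 305 RPKM in the same order of species. Of 30 skeletal muscle genes in both annotations, 24 stayed under a mean of 1 RPKM. The summed level of the other 6 was 231 RPKM in chicken and 14.4 RPKM in wood duck, of which *TNNC1* made up 211 and 0.640 RPKM in that order.

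Of the 9846 genes, 2948 differed by at least 2-fold (29.9%). Of these, 1132 were higher in chicken (11.5%) and 1816 were lower in chicken (18.4%), and 2752 were similar (28.0%). At least 8-fold, 85 genes were higher in chicken and 103 were lower. The median log2 ratio over all genes was −0.18, so the median gene was 1.13-fold higher in wood duck, and the middle 50% of genes lay between −0.77 and 0.44. The split between directions rests on this shift. When the values were scaled so that the median ratio is about 0, 1445 genes were higher and 1440 lower in chicken, with quantile normalization 1395 and 1462, and after division by the mean level of the pan-neuronal genes 1600 and 1301. A list with a median near −0.18 therefore did not stand apart from all genes. At the limit set on low values, 70 genes had a mean of 1 to 1.1 RPKM and 112 genes with a mean of 0.9 to 1 RPKM were left out.

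**Figure D1:**
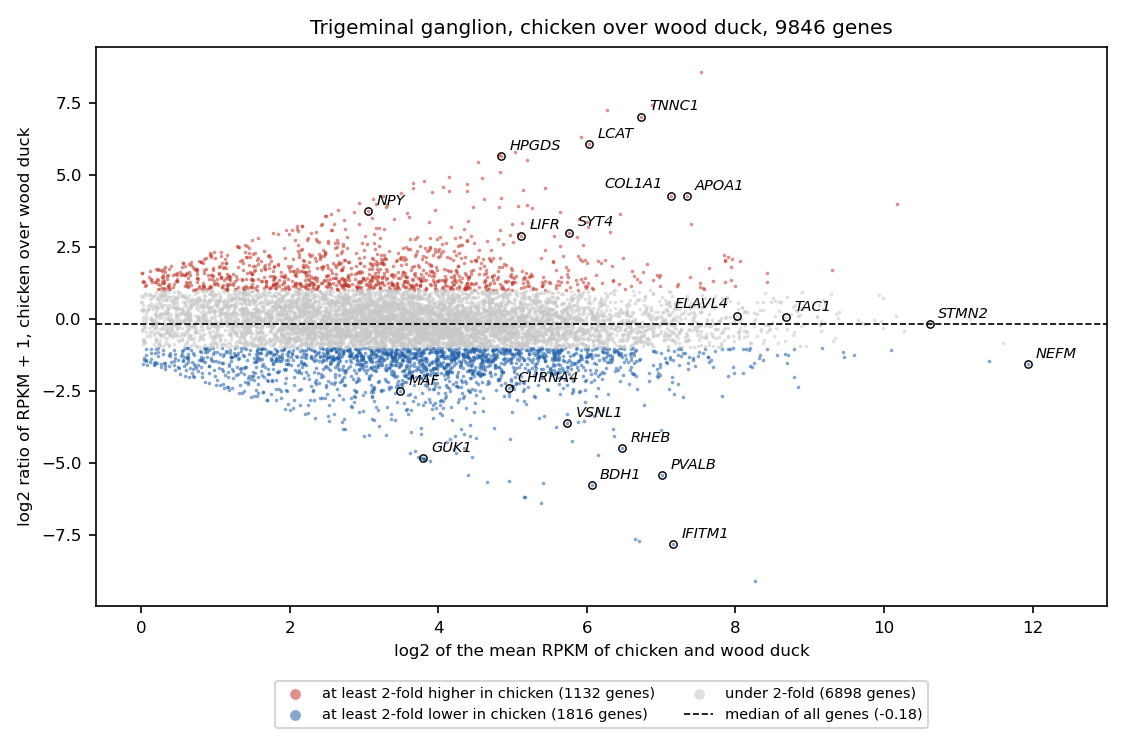
Log2 ratio of RPKM + 1, chicken over wood duck, for each of 9846 genes (points) against the log2 of the mean RPKM of the pair, with the median of all genes as a dashed line and named genes circled. Red points (1132) are at least 2-fold higher and blue points (1816) at least 2-fold lower in chicken, and *TNNC1* at 7.01 and *IFITM1* at −7.83 are the named genes farthest from 0.

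The share of genes that differed changed little with expression level. It was 30.2% for genes with a mean of 1 to 5 RPKM, 30.7% for 5 to 20 RPKM, 30.0% for 20 to 100 RPKM and 23.5% for 100 RPKM or more. It did change with how the genes of both annotations had been matched. Among the 8845 genes with the same symbol and a single gene in each annotation 28.7% differed, against 38.9% of the 622 genes whose duck gene has another symbol and 43.8% of the 379 genes whose chicken or duck gene stands in several rows.

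The chicken was about as far from wood duck as from most other ducks. With the same rule for each pair, 29.9% of genes differed at least 2-fold between chicken and wood duck, 28.5% between chicken and Pekin duck, 28.4% between chicken and black duck, 28.8% between chicken and lesser scaup, 30.3% between chicken and harlequin duck and 37.7% between chicken and ruddy duck. These pairs all share the chicken values. Between wood duck and the other ducks the share was 6.41% for Pekin duck, 6.11% for black duck, 6.04% for lesser scaup, 8.19% for harlequin duck and 20.9% for ruddy duck. Each of these shares compares means of 3 birds, and the spread between birds behind them is not known. The study mapped reads of every species to a duck (*Anas platyrhynchos*) and a chicken genome, so wood duck reads had no genome of their own species. The part of mapping and of matching between the annotations in these shares was not tested, so they are not a measure of expression distance alone.

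The largest ratios in the direction of chicken belonged to genes of several tissues. *TNNC1*, the troponin C of heart and slow muscle (chicken gene 396032, duck gene 101799009), had 211 RPKM in chicken and 0.640 RPKM in wood duck, a log2 ratio of 7.01, and at most 7.05 RPKM in the other 5 ducks. *MYL4*, an atrial and embryonic myosin light chain, had 33.0 RPKM in chicken and 0.419 RPKM in wood duck. *CSRP3*, a protein of the muscle Z-disc, had 40.7 RPKM in chicken and 0.930 RPKM in wood duck. Other muscle genes were higher in chicken at lower levels, with *TNNT3*, a fast troponin T, at 3.61 RPKM in chicken and 0.0579 RPKM in wood duck and *MYL1*, a myosin light chain, at 4.30 and 0.140 RPKM in that order.

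Lipid and defence genes were also among the highest ratios. *LCAT*, the plasma enzyme that esterifies cholesterol, had 129.6 RPKM in chicken and 0.959 RPKM in wood duck. *APOA1*, the main protein of high-density lipoprotein, had 310.3 RPKM in chicken and 15.3 RPKM in wood duck, with 16.5 to 115 RPKM in the other ducks. *HPGDS*, a prostaglandin D synthase, had 57.5 RPKM in chicken and 0.168 RPKM in wood duck, and its level among the other ducks ran from 0.398 to 19.7 RPKM. The calcium-binding defence gene *S100A9* of myeloid cells had 35.2 RPKM in chicken and 0.194 RPKM in wood duck, and *AVBD1*, an avian beta-defensin, had 27.9 and 0.0425 RPKM in that order. *HSP90AB1*, a cytosolic chaperone, had 83.7 RPKM in chicken and 2.62 RPKM in wood duck. An effect of gene models or of the matching of the annotations on low duck values, here and for the other highest ratios, was not tested. The other genes of the 15 highest were *STK32A*, *PJA2*, *AGMAT*, *NPNT*, *COL1A1* and *ASPA*, with log2 ratios from 4.16 to 4.89.

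For 14 of these 15 genes the chicken stood above all 6 ducks. The exception was *ASPA*, the enzyme that splits N-acetylaspartate and is high in myelinating glia, which had 68.6 RPKM in chicken and 2.16 RPKM in wood duck but 7.35 to 175 RPKM in the other ducks. There the wood duck was the low species.

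At the other end, *IFITM1*, an interferon-induced membrane protein that limits virus entry (chicken gene 422993, duck gene 101791431), had 0.258 RPKM in chicken and 285 RPKM in wood duck, a log2 ratio of −7.83. Among the other ducks it ran from 0.548 RPKM in harlequin duck to 62.8 RPKM in ruddy duck, so the wood duck stood above all 6 other species. *PVALB*, a calcium buffer of fast-firing and proprioceptive neurons (chicken gene 396459, duck gene 101794789), had 4.93 RPKM in chicken and 254 RPKM in wood duck, a log2 ratio of −5.43, and 90.8 to 569 RPKM in the other ducks. *TUBAL3*, an alpha-tubulin-like gene, had 0.590 RPKM in chicken and 43.4 RPKM in wood duck, with 0.686 to 21.3 RPKM in the other ducks. *GSTA3*, a glutathione transferase, had 4.26 RPKM in chicken and 137 RPKM in wood duck.

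Several of the lowest ratios belonged to genes that most cells use. *RHEB*, the small GTPase that activates mTORC1, had 6.66 RPKM in chicken and 171 RPKM in wood duck, with 142 to 211 RPKM in the other ducks. *GUK1*, the guanylate kinase, had 0.0123 RPKM in chicken and 27.7 RPKM in wood duck. *LEPROTL1*, a membrane protein of endosomes, had 0.00919 RPKM in chicken and 50.3 RPKM in wood duck. *NCBP2*, the small subunit of the nuclear cap-binding complex, had 4.67 RPKM in chicken and 107 RPKM in wood duck. *BDH1*, the enzyme that interconverts the ketone bodies, had 1.45 RPKM in chicken and 132 RPKM in wood duck, with 85.1 to 126 RPKM in the other ducks. The remaining genes of the 15 lowest were *TPM4*, *MYCBP*, *DUSP19*, *TMX1*, *PFKFB4* and *MNS1*, with log2 ratios from −5.69 to −4.50. All 15 genes were lower in chicken than in each of the 6 ducks. Some chicken values were close to 0, as for *GUK1*, *LEPROTL1* and *DUSP19*, the last with 0.00695 RPKM in chicken and 10.2 RPKM or more in each duck. Whether gene models or the matching of the annotations lowered such values was not tested, so they do not show that chicken ganglia lack these transcripts.

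**Figure D2:**
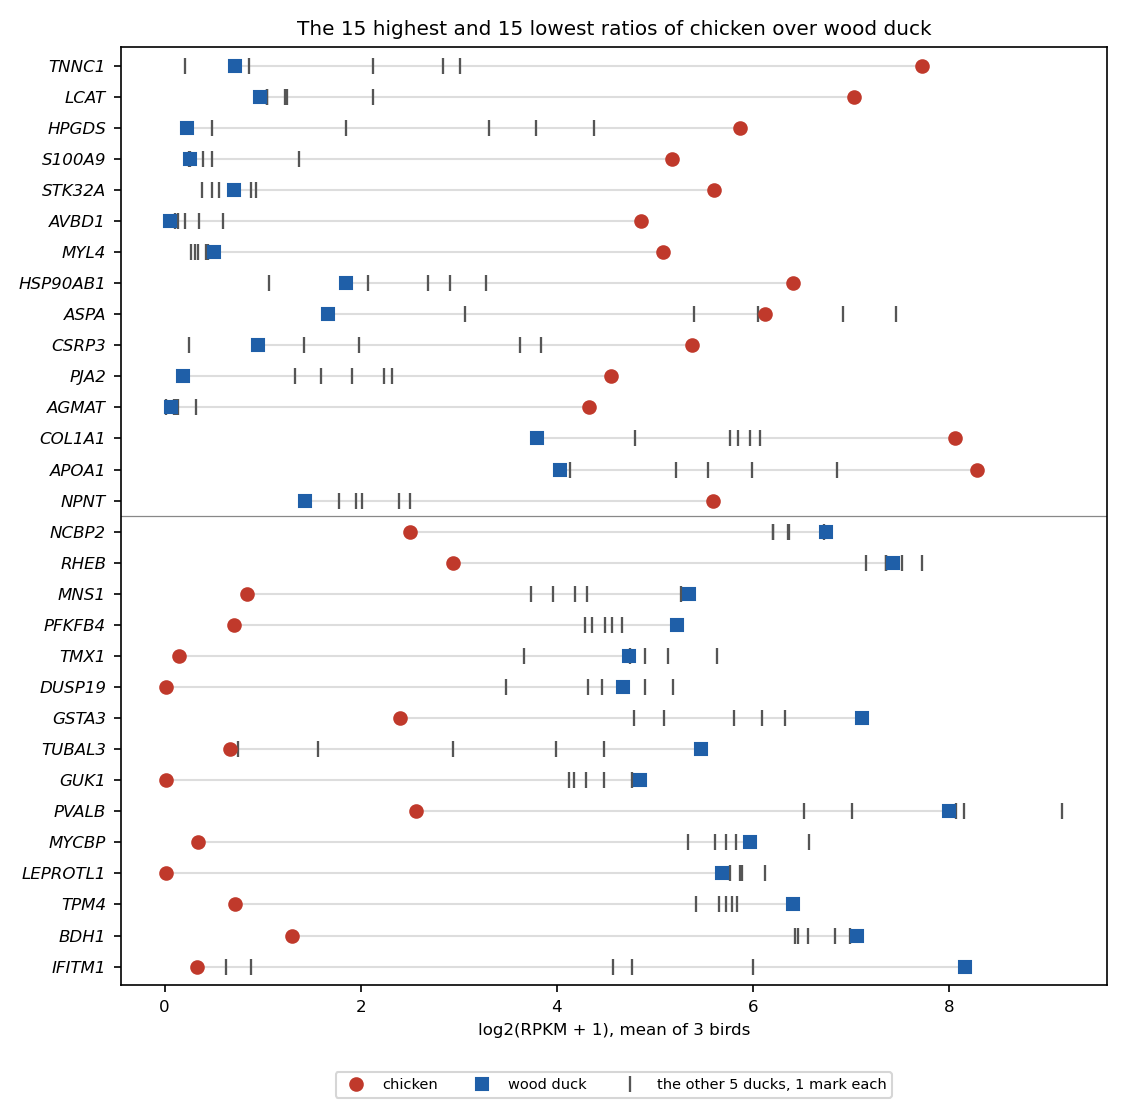
Levels of the 15 highest and 15 lowest ratios as log2(RPKM + 1), each the mean of 3 birds, with chicken as red circles, wood duck as blue squares and the other 5 ducks as grey marks. Chicken lies beyond all 6 ducks for every gene except *ASPA*, where wood duck (2.16 RPKM) lies below the other 6 species.

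Exact zeros were listed for 19 of the 9846 genes in chicken and for 10 in wood duck. All 19 genes listed at 0 in chicken had over 1 RPKM in Pekin duck, black duck, lesser scaup and harlequin duck, and 18 had over 1 RPKM in ruddy duck. They include *RPL14*, a ribosomal protein of every cell, at 209 RPKM in wood duck, and *SCN3B*, a sodium channel beta subunit, at 26.6 RPKM in wood duck. No ratio is given for a gene listed at 0, but these genes stay in the counts and medians. Among genes lower in chicken, they add 1 to the list of sodium channels and their regulators and 1 to the neuropeptide genes. They add 1 to the respiratory chain genes and 2 to the ribosomal protein genes. Without them, the median of the sodium channel and regulator genes is −0.59 and that of the respiratory chain genes is −0.42. Of the 10 genes listed at 0 in wood duck, only 2 had no other row with the same chicken gene or duck gene.

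The neuronal genes of 15 lists (channels, receptors, transcription factors, neuropeptides, synaptic, guidance and adhesion genes) together had 386 members. Of these, 58 were at least 2-fold higher in chicken (15%), 105 were lower (27.2%) and 84 were similar (21.8%), against 11.5%, 18.4% and 28.0% of all genes. The median log2 ratio was −0.23, against −0.18 for all genes. With the rule applied to each pair, 42.2% of neuronal genes differed at least 2-fold between chicken and wood duck, 44.3% between chicken and Pekin duck, 40.7% between chicken and black duck, 40.5% between chicken and lesser scaup, 38.9% between chicken and harlequin duck and 48.7% between chicken and ruddy duck. By this count over all neuronal genes the wood duck was neither the nearest nor the farthest duck from chicken.

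**Figure D3:**
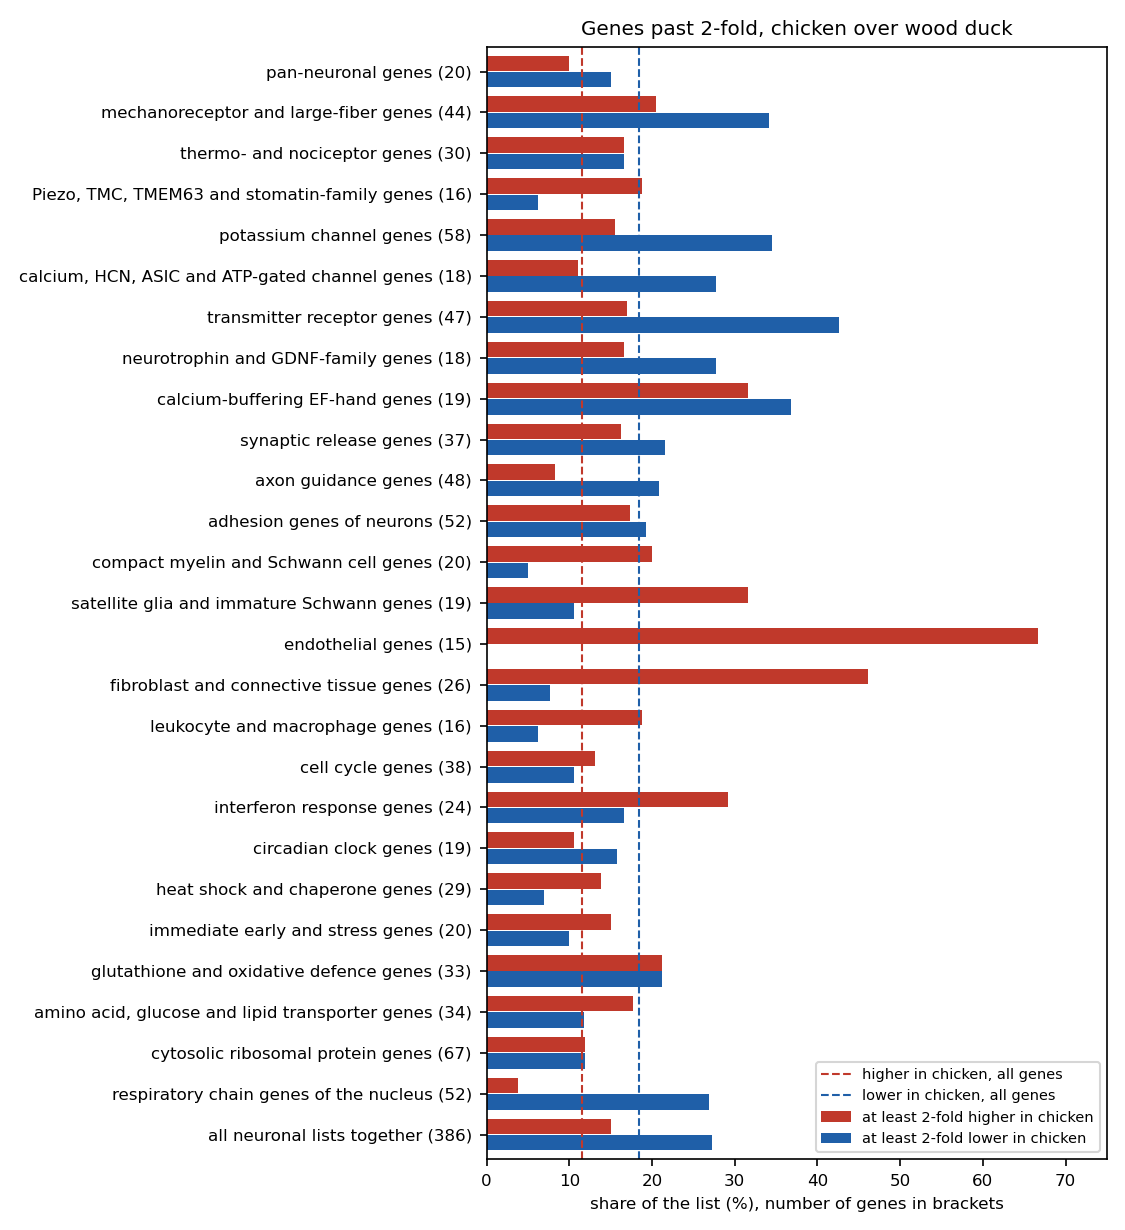
Share of each gene list (percent) that was at least 2-fold higher (red) or lower (blue) in chicken than in wood duck, for lists with at least 15 members, with the shares of all genes (11.5% and 18.4%) as dashed lines. Endothelial (10 of 15) and fibroblast genes (12 of 26) reach farthest on the red side and transmitter receptor genes (20 of 47) on the blue side.

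Of 20 pan-neuronal genes, 2 were at least 2-fold higher in chicken, 3 were lower and 5 were similar, so 25.0% differed against 29.9% of all genes. Their median was −0.48. *ELAVL4*, a neuronal RNA-binding protein, had 267 RPKM in chicken and 251 RPKM in wood duck, and *CHGB*, a protein of dense-core vesicles, had 77.9 and 79.0 RPKM in that order. A few differed widely. *VSNL1*, a neuronal calcium sensor, had 7.14 RPKM in chicken and 99.3 RPKM in wood duck, with 75.2 to 134 RPKM in the other ducks. *SYT4*, a synaptotagmin of dense-core vesicles, had 97.2 RPKM in chicken and 11.4 RPKM in wood duck, with 5.34 to 13.2 RPKM in the other ducks. *DCX*, the microtubule protein of young migrating neurons, had 16.2 RPKM in chicken and 2.69 RPKM in wood duck. *SCG3*, a granin-binding protein of secretory granules, had 243 RPKM in chicken and 589.9 RPKM in wood duck, and falls under 2-fold after division by the pan-neuronal genes. Among 8 transcription factors of sensory neuron identity, 1 was lower in chicken and 3 were similar. *EBF1* had 7.51 RPKM in chicken and 19.5 RPKM in wood duck, and *KLF7*, which maintains nociceptive neurons in the mouse, had 12.9 and 13.2 RPKM in that order.

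Of 44 genes of touch-sensing and large-fiber neurons, 15 were at least 2-fold lower in chicken (34.1%, against 18.4% of all genes), 9 were higher (20.5%, against 11.5%) and 4 were similar. More of them differed than of all genes, in a split of directions close to that of all genes. Their median log2 ratio was −0.57, against −0.18 for all genes. The median remained under 0 after each scaling (−0.29 to −0.38), where that of all genes moved to between 0.00 and 0.08. The pan-neuronal genes lay nearly as low, with a median of −0.48 and of −0.20 to −0.29 after scaling. Most of the shift of the touch list was therefore shared with genes of neurons in general. *MAF*, a transcription factor that touch receptors of the mouse need, had 2.62 RPKM in chicken and 19.8 RPKM in wood duck, and the other ducks lay at 17.8 to 19.3 RPKM. The neurofilament genes, chosen here after their values were seen, were all lower in chicken. *NEFM* had 1951 RPKM in chicken and 5862 RPKM in wood duck, *NEFL* had 1444 and 4006 RPKM, and *NEFH* had 288 and 599 RPKM in that order, of which *NEFH* falls under 2-fold after any of the scalings. *S100B*, a calcium-binding protein of large neurons and glia, had 52.2 RPKM in chicken and 116 RPKM in wood duck and likewise falls under 2-fold after scaling.

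The touch channel and its neurotrophin receptor showed smaller gaps. *PIEZO2*, the channel of light touch (chicken gene 421052, duck gene 101804683), had 48.2 RPKM in chicken and 81.5 RPKM in wood duck, a log2 ratio of −0.75, with 68.3 RPKM in harlequin duck and 92.4 to 102 RPKM in the 4 remaining ducks. *NTRK2*, the receptor for BDNF, had 21.1 RPKM in chicken and 41.3 RPKM in wood duck, a log2 ratio of −0.94, with 41.4 to 58.8 RPKM in the other ducks. For both genes chicken was below all 6 ducks and wood duck was within or at the lower edge of the ducks. The touch-related genes higher in chicken were of other kinds. *SPP1*, the secreted protein osteopontin found in proprioceptive neurons, had 53.7 RPKM in chicken and 2.72 RPKM in wood duck, *CALB1*, a calcium buffer, had 34.0 and 5.0 RPKM, and *CNTNAP1*, an adhesion protein of the node of Ranvier, had 102 and 25.8 RPKM in that order. Against the other ducks on their own, the same 44 genes had medians of −0.45 for chicken over Pekin duck, −0.35 over black duck, −0.73 over lesser scaup, −0.37 over harlequin duck and 0.11 over ruddy duck. These 44 genes had passed the limit on low values over chicken and wood duck, not over each pair.

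Genes of heat, cold and pain-sensing neurons had counts nearer to those of all genes. Of 30 such genes, 5 were at least 2-fold higher in chicken (16.7%), 5 were lower (16.7%) and 8 were similar (26.7%), against 11.5%, 18.4% and 28.0% of all genes. Their median was 0.19, against −0.18 for all genes, with medians of 0.38 to 0.46 after scaling. The substance P precursor *TAC1* (chicken gene 420573, duck gene 101797279) had 420.0 RPKM in chicken and 401 RPKM in wood duck, while the other ducks lay between 106 and 223 RPKM. *TRPA1*, the irritant and heat channel of birds, had 124 RPKM in chicken and 99.2 RPKM in wood duck, with 29.1 to 57.0 RPKM in the other ducks. *DGKH*, a diacylglycerol kinase, had 44.6 RPKM in chicken and 40.4 RPKM in wood duck, with 15.8 to 30.7 RPKM in the others. For each of these the chicken and wood duck means lay above those of all other ducks.

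In all, both the chicken and the wood duck mean lay above those of the other 5 ducks for 11 of the 30 genes (36.7%) and below them for 0, against 4.80% above and 8.58% below of all 9846 genes. This count was added after the values were seen, and the list was chosen with earlier results of these data known. *TAC1* and *TRPA1*, markers of the study, are among the 11. The 30 genes passed the limit on low values over chicken and wood duck. Genes low in both species could have been left out, which favours above over below. The same limit applied to all 9846 genes. Of the 386 neuronal genes, which include these, 12.2% lay above and 3.6% below. Above lay also 2 of 8 sensory identity transcription factors, 4 of 18 neurotrophin and GDNF-family genes and 10 of 58 potassium channel genes, but only 2 of 48 axon guidance genes. The next 5 are examples from the 30 genes, picked because both means lay above the other ducks, some with chicken and some with wood duck on top. *PRDM12*, a transcription factor required for pain neurons in mammals, had 86.7 RPKM in chicken and 60.8 RPKM in wood duck, with 14.9 to 42.3 RPKM in the other ducks. *RUNX1*, a transcription factor of nociceptors, had 12.5 RPKM in chicken and 9.21 RPKM in wood duck, with 4.15 to 5.38 RPKM in the others. *TRPM8*, the cold channel, had 54.6 RPKM in chicken and 73.3 RPKM in wood duck, with 20.7 to 51.9 RPKM in the others. *OPRM1*, the mu opioid receptor, had 9.97 RPKM in chicken and 16.6 RPKM in wood duck, with 3.78 to 7.24 RPKM in the others. *GFRA3*, the artemin receptor, whose duck gene carries no name, had 202 RPKM in chicken and 137 RPKM in wood duck, with 71.5 to 115 RPKM in the others. Other members of the list went their own ways. *TRPV1*, the capsaicin and heat channel, had 17.9 RPKM in chicken and 55.7 RPKM in wood duck, with 21.5 to 48.8 RPKM in the other ducks. *KCNK18*, a background potassium channel, had 9.99 RPKM in chicken and 46.1 RPKM in wood duck, and *CALCB*, a calcitonin gene-related peptide, had 7.07 and 28.0 RPKM in that order. *NPY*, neuropeptide Y, had 16.4 RPKM in chicken and 0.308 RPKM in wood duck, and *GRIK1*, a kainate receptor subunit, had 7.87 and 0.740 RPKM in that order.

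Set beside the other ducks, the same 30 genes had a median log2 ratio of 1.05 for chicken over Pekin duck (16 at least 2-fold higher, 3 lower), 0.81 over black duck (14 and 2), 0.77 over lesser scaup (12 and 3), 1.16 over ruddy duck (17 and 4) and 0.37 over harlequin duck (7 and 4). For wood duck over the other ducks the medians were 0.57 for Pekin duck (13 higher, 0 lower), 0.66 for black duck (11 and 0), 0.47 for lesser scaup (9 and 1), 0.48 for ruddy duck (9 and 1) and 0.24 for harlequin duck (2 and 2). These ratios share the chicken or the wood duck values and are not independent of each other. The 30 genes are those of 37 in both annotations that passed the limit on low values over chicken and wood duck. Genes high only in other ducks could have been left out, which can raise the medians over those ducks. The shares of all genes that follow apply the rule to each pair on its own, so they rest on other sets of genes. Of all genes, 9.31% were at least 2-fold higher and 19.2% lower in chicken than in Pekin duck, 9.32% and 19.1% than in black duck, 9.32% and 19.5% than in lesser scaup, 18.4% and 19.3% than in ruddy duck, and 9.93% and 20.4% than in harlequin duck. Of all genes, 2.36% were at least 2-fold higher and 4.05% lower in wood duck than in Pekin duck, 2.25% and 3.86% than in black duck, 2.16% and 3.89% than in lesser scaup, 13.7% and 7.24% than in ruddy duck, and 2.48% and 5.71% than in harlequin duck.

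**Figure D4:**
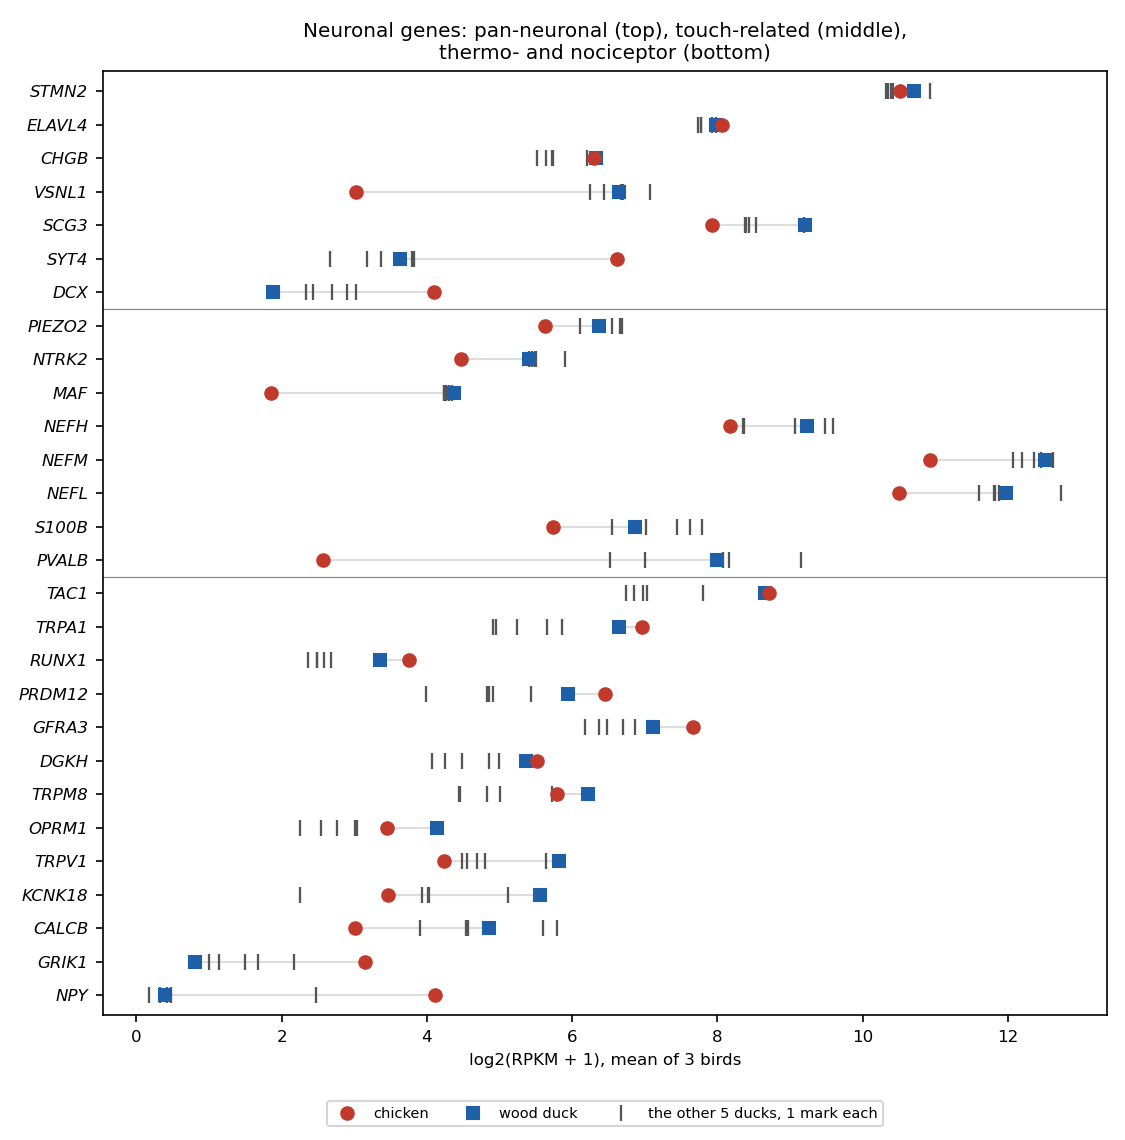
Levels of pan-neuronal (top), touch-related (middle) and thermo- and nociceptor genes (bottom) as log2(RPKM + 1), each the mean of 3 birds, with chicken as red circles, wood duck as blue squares and the other 5 ducks as grey marks. For *MAF*, *PIEZO2*, *NEFM* and *PVALB* the wood duck lies with the other ducks and apart from chicken, and for *TAC1*, *TRPA1*, *PRDM12* and *DGKH* it lies next to chicken above the other ducks. The touch-related genes drawn are all lower in chicken, and the 9 of 44 touch and large-fiber genes at least 2-fold higher in chicken are not drawn among them. Most thermo- and nociceptor genes drawn have both the chicken and the wood duck mean above the other ducks, as against 11 of 30 in their list.

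A list of 16 genes held Piezo, TMC, TMEM63 and stomatin-family genes and others outside these families, such as *CIB2*, *LHFPL5*, *TMEM120A* and *TMEM150C*. Of the 16, 3 were at least 2-fold higher in chicken (18.8%), 1 was lower (6.25%) and 4 were similar (25%), with a median of 0.39. The shares of all genes were 11.5%, 18.4% and 28.0%. The 3 higher genes were *LHFPL5*, *TMEM120A* and *TMEM150C*, so none came from the named families. *TMC3*, a transmembrane channel-like gene, had 36.9 RPKM in chicken and 35.9 RPKM in wood duck, with 12 to 39.8 RPKM in the other ducks. *CIB2*, a calcium-binding partner of TMC proteins in hair cells, had 33.3 RPKM in chicken and 29.3 RPKM in wood duck, with 13.9 to 19.9 RPKM in the others. *LHFPL5*, a subunit of the hair-cell transduction complex, had 6.04 RPKM in chicken and 0.613 RPKM in wood duck, *TMEM120A* had 10.4 and 2.52 RPKM, and *TMEM150C* had 6.28 and 1.92 RPKM in that order. *TMC7* had 6.66 RPKM in chicken and 16.1 RPKM in wood duck, which is under 2-fold after scaling.

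Among 58 potassium channel genes, 9 were at least 2-fold higher in chicken (15.5%), 20 were lower (34.5%) and 11 were similar, against 11.5%, 18.4% and 28.0% of all genes. Their median of −0.23 was near that of all genes and was 0.02 after division by the pan-neuronal genes. *KCNN2*, a small-conductance calcium-activated channel, had 0.950 RPKM in chicken and 26.3 RPKM in wood duck, with 12.9 to 37.7 RPKM in the other ducks. *KCNIP2*, a partner of Kv4 channels, had 1.67 RPKM in chicken and 23.2 RPKM in wood duck. In the other direction, *KCNK3*, an acid-sensitive background channel, had 14.7 RPKM in chicken and 0.620 RPKM in wood duck, and *KCNG1*, a modifier subunit of Kv2 channels, had 11.6 and 1.45 RPKM in that order. Its relative *KCNG2* had 6.84 RPKM in chicken and 6.90 RPKM in wood duck, against 2.20 to 3.55 RPKM in the other ducks.

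Of 12 genes of sodium channels and their regulators, 1 was at least 2-fold higher in chicken (8.33%) and 4 were lower (33.3%), with a median of −0.72. The 4 lower genes include the regulators *FGF12* and *FGF14* and also *SCN3B*, which is listed at 0 in chicken. The shares of all genes were 11.5% higher and 18.4% lower. *FGF12*, an intracellular regulator of sodium channels, had 75.7 RPKM in chicken and 203 RPKM in wood duck, and the other ducks lay at 89.5 to 115 RPKM. *FGF14*, of the same family, had 1.40 RPKM in chicken and 10.7 RPKM in wood duck. *SCN2A* had 11.7 RPKM in chicken and 10.1 RPKM in wood duck, and *NALCN*, the sodium leak channel, had 16.6 and 7.91 RPKM in that order. Of 18 genes for calcium, HCN, acid-sensing and ATP-gated channels, 2 were higher in chicken (11.1%), 5 were lower (27.8%) and 4 were similar (22.2%). *CACNA1B*, the N-type calcium channel, had 19.5 RPKM in chicken and 19.1 RPKM in wood duck, whereas *CACNA1D*, an L-type channel, had 2.55 and 14.2 RPKM and *P2RX4*, an ATP-gated channel, had 2.63 and 15.6 RPKM in that order.

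Transmitter receptors had the largest share of genes lower in chicken among the neuronal lists with over 20 members. Of 47 genes, 20 were at least 2-fold lower in chicken (42.6%), 8 were higher (17.0%) and 8 were similar (17.0%). The shares of all genes were 18.4%, 11.5% and 28.0%. The median of these 47 genes was −0.46 and remained under 0 after each scaling (−0.18 to −0.31). It did not stand apart from the median of the pan-neuronal genes, which was −0.48 and −0.20 to −0.29 after scaling. *CHRNA4*, a nicotinic receptor subunit, had 9.21 RPKM in chicken and 52.9 RPKM in wood duck, while the other ducks lay at 6.90 to 19.4 RPKM on the side of chicken. *HTR1E*, a serotonin receptor, had 2.34 RPKM in chicken and 25.4 RPKM in wood duck, with 10.2 to 31.0 RPKM in the other ducks. *GLRA4*, a glycine receptor subunit, had 10.6 RPKM in chicken and 0.186 RPKM in wood duck, with 1.77 to 2.86 RPKM in the others. *GLRB*, the beta subunit of the glycine receptor, had 45.9 RPKM in chicken and 39.7 RPKM in wood duck.

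Of 9 neuropeptide genes, 2 were at least 2-fold higher in chicken, 3 were lower and 1 was similar. So 55.6% differed, against 29.9% of all genes. Besides *TAC1*, *CALCB* and *NPY*, *PENK*, the enkephalin precursor, had 0.391 RPKM in chicken and 6.96 RPKM in wood duck, and *UCN3*, a urocortin, had 4.06 and 0.791 RPKM in that order. *CCK*, cholecystokinin, had 48.4 RPKM in chicken and 37.7 RPKM in wood duck, near the low end of the other ducks at 34.5 to 464 RPKM. *ADCYAP1*, the PACAP precursor, had 71.2 RPKM in chicken and 127 RPKM in wood duck.

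Among 18 neurotrophin and GDNF-family genes, 3 were higher in chicken, 5 were lower and 2 were similar, so 44.4% differed at least 2-fold. *LIFR*, the receptor for leukemia inhibitory factor, had 61.9 RPKM in chicken and 7.5 RPKM in wood duck, while the other ducks lay at 41.5 to 101 RPKM, so the wood duck stood below all 6 other species. *GFRA4*, the persephin receptor, had 25.8 RPKM in chicken and 3.82 RPKM in wood duck. *GFRAL*, the GDF15 receptor, had 4.76 RPKM in chicken and 18.5 RPKM in wood duck, and *GFRA1*, the GDNF receptor, had 28.8 and 25.5 RPKM in that order. Of 19 EF-hand calcium-binding genes, 6 were higher in chicken, 7 were lower and 2 were similar, so 68.4% differed at least 2-fold against 29.9% of all genes. Besides *PVALB*, *VSNL1* and *CALB1*, *S100A6* had 117 RPKM in chicken and 12 RPKM in wood duck, and *NCS1*, a neuronal calcium sensor, had 52.1 and 70.2 RPKM in that order.

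Of 37 synaptic release genes, 6 were higher in chicken, 8 were lower and 12 were similar (32.4%, against 28.0% of all genes). *SLC17A8*, a vesicular glutamate transporter that marks a class of low-threshold fibers in the mouse, had 0.182 RPKM in chicken and 11.2 RPKM in wood duck, with 2.90 to 7.96 RPKM in the other ducks. *VAMP1*, a vesicle fusion protein, had 18.9 RPKM in chicken and 3.73 RPKM in wood duck, with 1.04 to 28.2 RPKM in the others. Of 48 axon guidance genes, 4 were higher in chicken, 10 were lower and 14 were similar (29.2% past 2-fold, against 29.9% of all genes). *SLIT1*, a repellent ligand, had 23.3 RPKM in chicken and 4.36 RPKM in wood duck, and *PLXNA2*, a semaphorin receptor, had 0.763 and 13.4 RPKM in that order. Of 52 adhesion genes, 9 were higher in chicken, 10 were lower and 12 were similar, so 36.5% differed at least 2-fold. *CADM2*, an immunoglobulin-type adhesion protein, had 15.4 RPKM in chicken and 96.2 RPKM in wood duck, with 39.0 to 70.4 RPKM in the other ducks.

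The 15 neuronal genes that lay closest between both species before any scaling, taken where the mean reached 20 RPKM, had log2 ratios between −0.08 and 0.12. Vesicle genes among them were *RAB3C*, a small GTPase of synaptic vesicles, at 59.2 RPKM in chicken and 59.6 RPKM in wood duck, *NSF*, the ATPase that recycles fusion complexes, at 154 and 147 RPKM, and its cofactor *NAPB* at 125 and 122 RPKM in that order. *AMPH*, of vesicle retrieval, was also in this group. Guidance and adhesion genes among them were *SEMA5A*, a semaphorin, at 58.0 RPKM in chicken and 57.9 RPKM in wood duck, and the semaphorin receptor *NRP1* at 39.6 and 42.0 RPKM in that order, together with *SEMA6D*, *NCAM1* and *NRCAM*. *TAC1*, *TMC3*, *ELAVL4* and *CHGB* belonged to it as well. Not all of these were level among the ducks. *SEMA5A* lay at 84.2 to 95.9 RPKM in Pekin duck, black duck and lesser scaup, and *NRCAM*, with 40.2 RPKM in chicken and 38.5 RPKM in wood duck, lay at 21.1 to 28.9 RPKM in the other 5 ducks. Closeness of the 15 genes also depends on scaling. Their log2 ratios ran from 0.12 (*NRP1*) to 0.32 (*SEMA6D*) after median scaling and from 0.20 to 0.40 after division by the pan-neuronal genes. After that division some, such as *TAC1* (0.36) and *ELAVL4* (0.38), were no longer counted as similar.

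Glial genes were mixed. Of 20 myelin and Schwann cell genes, 4 were at least 2-fold higher in chicken, 1 was lower and 7 were similar, with a median of 0.01. So 25% of them differed, against 29.9% of all genes. *SOX10*, the transcription factor of peripheral glia, had 56.4 RPKM in chicken and 51.1 RPKM in wood duck. *MBP*, myelin basic protein, had 2234 RPKM in chicken and 3999 RPKM in wood duck, with 5089 to 7312 RPKM in the other ducks. *GLDN*, gliomedin of the nodes of Ranvier, had 112 RPKM in chicken and 286 RPKM in wood duck. Of 19 satellite glia and immature Schwann cell genes, 6 were higher in chicken, 2 were lower and 3 were similar, with a median of 0.50. So 42.1% of these 19 differed. *GFAP*, a glial filament, had 44.5 RPKM in chicken and 7.66 RPKM in wood duck, with 8.48 to 48.6 RPKM in the other ducks, and *PLLP*, plasmolipin of myelin, had 26.5 RPKM in chicken and 7.33 RPKM in wood duck, with 24.6 to 37.0 RPKM in the others. For *PLLP* and *GFAP* the wood duck was below all 6 other species. *GLUL*, the glutamine synthetase of satellite glia, had 85.0 RPKM in chicken and 104 RPKM in wood duck.

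Genes of vessels and connective tissue were higher in chicken. Of 15 endothelial genes, 10 were at least 2-fold higher in chicken (66.7%) and 0 were lower, with a median of 1.16. The shares of all genes were 11.5% higher and 18.4% lower. *PECAM1*, an adhesion protein of endothelium, had 23.6 RPKM in chicken and 6.74 RPKM in wood duck, *VWF*, von Willebrand factor, had 21.4 and 5.14 RPKM, and *CDH5*, vascular cadherin, had 18.4 and 7.71 RPKM in that order. The summed level of the list was 109 RPKM in chicken and 35.7 RPKM in wood duck, with 56.2 to 76.8 RPKM in the other ducks. Of 26 fibroblast genes, 12 were at least 2-fold higher in chicken (46.2%), 2 were lower and 2 were similar, with a median of 0.93. *COL1A2* had 380.0 RPKM in chicken and 81.5 RPKM in wood duck, with 205 to 342 RPKM in the other ducks. *COL1A1*, the other chain of type I collagen, whose duck gene carries no name, had 267 RPKM in chicken and 13 RPKM in wood duck, with 26.9 to 66.2 RPKM in the others. *POSTN*, a matrix protein of connective tissue, had 23.8 RPKM in chicken and 3.27 RPKM in wood duck. *PDGFRA*, a receptor of fibroblasts, had 12.5 and 12.6 RPKM in that order.

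The fibroblast sum was 2384 RPKM in chicken and 868 RPKM in wood duck, with 1754 to 2082 RPKM in the other ducks, so the wood duck was the low species. The medians of the same 26 genes for wood duck over the other ducks were −1.05 for Pekin duck, −0.93 for black duck, −0.99 for lesser scaup, −0.67 for ruddy duck and −0.65 for harlequin duck, and for chicken over those ducks they ran from 0.09 to 0.39. The part of connective tissue and vessel content in the neuronal differences was not tested. Divided by the pan-neuronal genes, the fibroblast median was 1.21 and the endothelial median was 1.42.

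**Figure D5:**
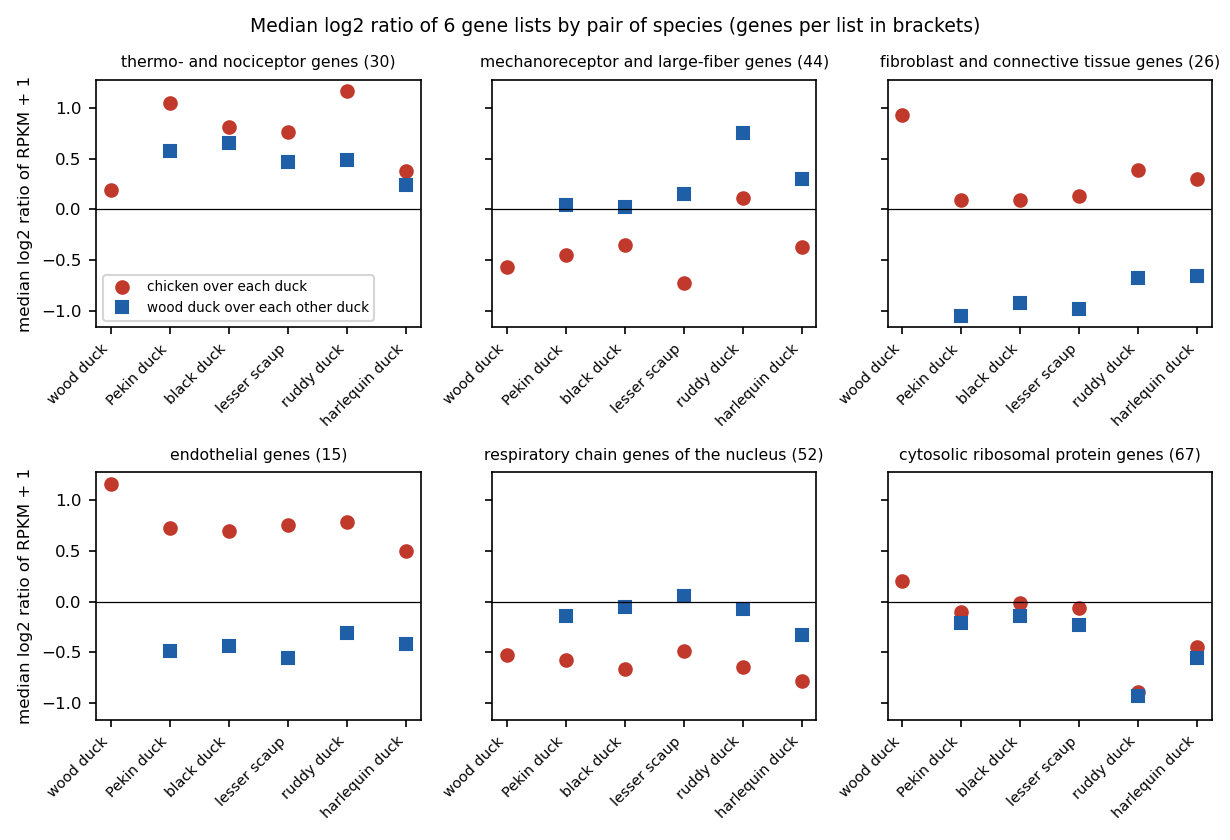
Median log2 ratio of RPKM + 1 over the members of 6 gene lists, for chicken over each of the 6 ducks (red circles) and for wood duck over each of the other 5 ducks (blue squares). In every pair the members are those that passed the limit on low values over chicken and wood duck. Wood duck lies below the other 5 ducks in fibroblast (−1.05 to −0.65) and endothelial genes and above them in thermo- and nociceptor genes (0.24 to 0.66).

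Of 16 leukocyte and macrophage genes, 3 were higher in chicken (18.8%), 1 was lower (6.25%) and 4 were similar (25%), with a median of 0.70. *CSF1R*, the growth factor receptor of macrophages, had 19.4 RPKM in chicken and 5.33 RPKM in wood duck, and *LCP1*, a leukocyte actin-bundling protein, had 106 and 91.5 RPKM in that order. None of 4 red blood cell genes (*EPB41*, *AQP1*, *RHCE* and *CA2*) differed at least 2-fold. No hemoglobin gene is among them, so they do not measure blood content. Of 6 skeletal muscle genes, 3 were higher in chicken and 2 were lower, with a median of 1.41, and the part of muscle content in the other differences was not tested. The list held *ACTA1*, skeletal actin, at 10.4 RPKM in chicken and 5.98 RPKM in wood duck, with 9.30 to 67.5 RPKM in the other ducks. Of 38 cell cycle genes, 5 were higher in chicken (13.2%), 4 were lower (10.5%) and 9 were similar (23.7%). The shares of all genes were 11.5%, 18.4% and 28.0%.

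Interferon response genes went both ways. Of 24 such genes, 7 were at least 2-fold higher in chicken (29.2%), 4 were lower (16.7%) and 6 were similar (25%). The shares of all genes were 11.5%, 18.4% and 28.0%. The median of the 24 genes was 0.04. *IFITM1*, at −7.83, was not on this list, whose lowest ratio was −1.25. The genes named next had the largest ratios of the list, and all were higher in chicken. *IFIT5*, an RNA-binding antiviral protein, had 12.7 RPKM in chicken and 0.901 RPKM in wood duck, with 0.687 to 2.00 RPKM in the other ducks. *IRF8*, a transcription factor of myeloid cells, had 14.9 RPKM in chicken and 2.98 RPKM in wood duck. *USP18*, which removes ISG15 and dampens interferon signalling, had 10.7 RPKM in chicken and 1.97 RPKM in wood duck, with 0.181 to 0.917 RPKM in the others. *IFIH1*, the RNA sensor MDA5, had 6.18 RPKM in chicken and 1.52 RPKM in wood duck.

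Of 19 circadian clock genes, 2 were higher in chicken, 3 were lower and 7 were similar, with *PER2* at 6.82 RPKM in chicken and 6.64 RPKM in wood duck, *BHLHE40*, a repressor of the clock, at 3.40 and 14 RPKM, and *CRY4*, a cryptochrome of birds, at 5.45 and 0.864 RPKM in that order. Of 6 thyroid hormone genes, 0 differed at least 2-fold and 4 were similar, among them *DIO2*, the enzyme that activates thyroid hormone, at 95.5 RPKM in chicken and 101 RPKM in wood duck. Of 29 heat shock and chaperone genes, 4 were higher in chicken, 2 were lower and 10 were similar. *CRYAB*, a small heat shock protein, had 93.7 RPKM in chicken and 6.29 RPKM in wood duck, with 25.5 to 190 RPKM in the other ducks, so the wood duck was the low species. Of 20 immediate early and stress genes, 3 were higher in chicken, 2 were lower and 5 were similar, with *JUN* at 50.6 RPKM in chicken and 46.5 RPKM in wood duck and *GADD45A*, a stress-induced gene, at 30.3 and 4.08 RPKM in that order. Of 6 carbonic anhydrase genes, 2 were higher in chicken and 0 were lower. Of 33 glutathione and oxidative defence genes, 7 were higher in chicken and 7 were lower. Of 34 transporter genes, 6 were higher in chicken, 4 were lower and 6 were similar. The shares past 2-fold were 26.3% for clock genes, 20.7% for heat shock genes and 25% for immediate early and stress genes. They were 33.3% for carbonic anhydrases, 42.4% for glutathione genes and 29.4% for transporters, against 29.9% of all genes. A single HOX gene passed the limit on low values, *HOXD3*, at 0.212 RPKM in chicken and 3.79 RPKM in wood duck.

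Ratios also scattered among the members of single complexes. Of 67 cytosolic ribosomal protein genes, 8 were at least 2-fold higher in chicken (11.9%), 8 were lower (11.9%) and 17 were similar (25.4%), with a median of 0.21. The shares of all genes were 11.5%, 18.4% and 28.0%. Of the ribosomal genes 23.9% differed, against 29.9% of all genes but 23.5% of all genes with a mean of 100 RPKM or more. *RPL27* had 389.7 RPKM in chicken and 87.2 RPKM in wood duck, *RPL31* had 109 and 298 RPKM, and *RPS20* had 196 and 197 RPKM in that order. Among the ducks, the same 67 genes gave 0 at least 2-fold higher and 3 lower in wood duck than in Pekin duck, 0 and 2 than in black duck, 0 and 1 than in lesser scaup, 2 and 28 than in ruddy duck, and 0 and 15 than in harlequin duck. Of 52 nuclear genes of the respiratory chain, 2 were higher in chicken (3.8%), 14 were lower (26.9%) and 13 were similar (25.0%). Their median of −0.53 remained under 0 after each scaling (−0.24 to −0.33). *NDUFS6*, of complex I, had 13 RPKM in chicken and 75.3 RPKM in wood duck, and *SDHA*, of complex II, had 133 RPKM in both. In wood duck, 0 of these 52 genes were at least 2-fold higher and 0 lower than in Pekin duck, 0 and 1 than in black duck, 0 and 0 than in lesser scaup, 9 and 2 than in ruddy duck, and 0 and 3 than in harlequin duck. Of all genes, 2.36% were higher and 4.05% lower in wood duck than in Pekin duck, and 2.25% and 3.86% than in black duck. The shares were 2.16% and 3.89% for lesser scaup, 13.7% and 7.24% for ruddy duck, and 2.48% and 5.71% for harlequin duck. Only the ribosomal genes lower than in ruddy duck and harlequin duck lay far above these shares.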

How the data were processed

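RNA from whole trigeminal ganglia of 3 birds in each of 7 species was sequenced from strand-specific libraries. The read files were trimmed by Trimmomatic 0.36, mapped by STAR 2.5.4b to a duck (BGI_duck_1.0) and a chicken (GRCg6a) genome, and summed per protein-coding gene by featureCounts from Subread 1.6.2, according to the study's methods. Default settings were used, which do not use strand, so reads of overlapping genes on opposite strands cannot be told apart. RPKM values were computed by the authors with edgeR 3.22.3 and deposited as 1 mean per species, in a table that joins duck and chicken genes. Which genome gave each value of a gene present in both is not given in the sources used here. Gene models that differ in length or completeness, or reads shared with a near copy such as a ribosomal protein pseudogene, can move a ratio, and 356 of the 9846 genes repeat a chicken gene over several rows.

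Ratios were computed as log2 of RPKM with a pseudocount of 1, with a minimum mean of 1 RPKM over chicken and wood duck, in Python 3.11.15 with numpy 2.4.6 and pandas 2.3.3, and plotted with matplotlib 3.10.9. The steps were tested on simulated data. The values of single birds and their depth were not used here, so no test, interval or SD is given. The 34 gene lists and the members were chosen with earlier results of these data known. The genes named are the 15 highest and 15 lowest ratios whose direction held after each scaling, per list up to 4 of largest size and up to 3 closest to 0 at a mean of 5 RPKM or more, the 15 closest neuronal genes at a mean of 20 RPKM or more, and markers of cell types and of the study. Symbols without a name, genes in several rows and genes at 0 in any species were passed over, so larger ratios exist among them, and the few genes named outside this rule were chosen after their values were seen. Certain genes are not reported here. Alternatives were a pseudocount of 0.1, other limits on low values, all annotation classes, 3 scalings, genes above 0 in both species, and genes with the same symbol and a single gene in each annotation, the last chosen after seeing the data.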

Additional observations from a re-analysis of the deposited data

How the results depend on the processing

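The 2-fold count (2948) and the median ratio of all genes (−0.178) moved with few choices. Without a limit on low values, 4430 genes were similar, the median was −0.061 and the median size of the ratio was 0.514, against 0.620. With a mean of at least 5 RPKM, 740 genes were higher in chicken. With all annotation classes, 4521 genes differed at least 2-fold and 2190 were higher in chicken, and the median of the HOX genes turned to 0.29, where the single gene of the main comparison was at −1.98. The median of all genes was 0.0030 after scaling by the median ratio, 0.0034 after quantile normalization and 0.0814 after division by the pan-neuronal genes. Genes with the same symbol and a single gene in each annotation, a setting chosen after seeing the data, had 908 higher and 1632 lower in chicken. Of 138 named genes past 2-fold, 4 fell under it after median scaling or quantile normalization (*CLOCK*, *NEFH*, *S100B*, *TMC7*) and 6 after division by the pan-neuronal genes (these and *CD3D* and *SCG3*). Of the 34 list medians, 17 kept their sign under all 9 settings, among them those of the mechanoreceptor, nociceptor, transmitter receptor, fibroblast and endothelial genes, and 17 changed sign under at least 1. The median of the neuropeptide genes moved to −0.38 with all annotation classes (0.07 as reported), that of the cell cycle genes to −0.50 with a mean of at least 5 RPKM (0.17) and that of the carbonic anhydrases to −0.24 with single matched genes (0.56), and those of the synaptic, axon guidance and potassium channel genes were above 0 after division by the pan-neuronal genes. A shift of 0.1 on the log2 scale, the size counted as a move, was set after the data were seen. No paired analysis was possible because the table holds species means without a column per bird, and leaving out single birds was not run for the same reason.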

Other observations

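Several genes of interest stand in only 1 of the 2 annotations and were outside the comparison, and their values, chosen after they were seen, are given without a ratio. *DDX58*, the RNA sensor RIG-I, which stands in the duck annotation alone, was listed at 0 in chicken and had 17.8 RPKM in wood duck. *GABBR1*, a GABA-B receptor subunit, also in the duck annotation alone, had 1.44 RPKM in chicken and 37.4 RPKM in wood duck. Of the pain-related genes in the chicken annotation alone, the sodium channel gene *SCN9A* had 145 RPKM in chicken and 67.4 RPKM in wood duck, and the ATP-gated channel gene *P2RX3* had 27.0 and 6.10 RPKM in that order. *ISL1*, a transcription factor of sensory neurons, had 46.6 RPKM in chicken and 35.4 RPKM in wood duck. How far absence from 1 annotation moved these values was not tested, so they do not show that the species differ in these genes. When all annotation classes were used, 2190 genes were at least 2-fold higher and 2331 lower in chicken, against 1132 and 1816 as reported.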
